A study of Cavia porcellus with 35 samples.

Results

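The response to antenatal synthetic glucocorticoid (sGC) that F2 females and F1 males had in common was measured in the medial prefrontal cortex of juvenile guinea pigs. The members are all 19 animals of the F2 female table and of the F1 male table, out of 35 animals in the series, and the genes are the 11199 symbols that both tables list. The F2 animals were 4 control and 4 sGC females, and the F1 animals were 5 control and 6 sGC males, all killed at postnatal day 40. F1 males were born to dams given repeated courses of betamethasone, a synthetic glucocorticoid, or saline in late pregnancy. F2 females were never exposed as fetuses: they were daughters of F1 males from sGC-treated or saline-treated dams and of females outside the experiment. Only 1 animal of each sex per litter was taken for the female groups, and the litters of the males are not stated in the sources used here. Generation, sex and deposited table change together between the 2 sets of animals, so that their roles in any difference cannot be told apart. Whether any F2 female was sired by one of the 6 sequenced sGC males is not stated either.

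Betamethasone binds the glucocorticoid receptor, a transcription factor that is abundant in the prefrontal cortex, and it crosses the placenta. Oligodendrocytes, the cells that wrap axons in myelin, mature late in brain development, and myelin is built from a few very abundant proteins, from cholesterol and from galactolipids. The cortex is layered, with neurons that connect cortical areas in the upper layers and neurons that project below the cortex in the deep layers. A punch of cortex holds grey matter with a varying amount of the underlying white matter, in which oligodendrocyte RNA is concentrated.

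Reads assigned to the shared symbols ranged from 12719038 to 16916823 per F2 female and from 25453583 to 31472257 per male. All levels are TMM-normalized CPM, that is, reads scaled to the size of each library. A deposited protocol names a punch of the paraventricular nucleus, whereas the source name of every sample is prefrontal cortex. SLC17A7, the vesicular glutamate transporter of cortical projection neurons, was at 1240 to 1640 CPM over the 19 animals. The hypothalamic peptide genes AVP and OXT were at 0.461 to 1.36 and 1.54 to 4.1 CPM, and CRH was at 0.3 to 2.29 CPM. SIM1, a transcription factor gene that is also a marker of the paraventricular nucleus, was higher than these, at 3.75 to 14.9 CPM.

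The average effect of sGC was fitted over the 19 animals with the table as covariate, and edgeR's quasi-likelihood test gave each gene a false discovery rate (FDR), called where it was below 0.05. Of 11198 genes tested, 1696 (15.1%) passed, with 837 (7.47%) up-regulated and 859 (7.67%) down-regulated. Before adjustment for multiple tests, p was below 0.05 for 3298. Fitted alone, the F2 table gave 31 genes (0.278%) and the table of F1 males gave 1062 (9.22%). A gene was taken as shared if it passed this threshold and if its effect also had the same sign, with an unadjusted p under 0.05, in each table fitted alone. This held for 796 genes (7.11% of all tested). Of them 403 (3.6%) rose and 393 (3.51%) fell, and the definition fixes their direction in both tables. The median log2 fold change of the genes that rose was 0.36 in F2 females and 0.46 in F1 males, and that of the genes that fell was -0.30 and -0.25. Every sGC animal lay beyond every control, in the same direction in both tables, for 147 genes (1.31%), compared with 8.04% of genes in F2 females alone and 6.44% in males alone. Of the 147, 132 were shared genes, 95 that rose and 37 that fell. Across all 11198 genes, the fold changes in the 2 tables, which have no animal in common, correlated with Pearson's r = 0.48 and a Spearman coefficient of 0.43, and 65.4% had the same sign. Genes are not independent replicates, so these values are descriptions.

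**Figure D1:**
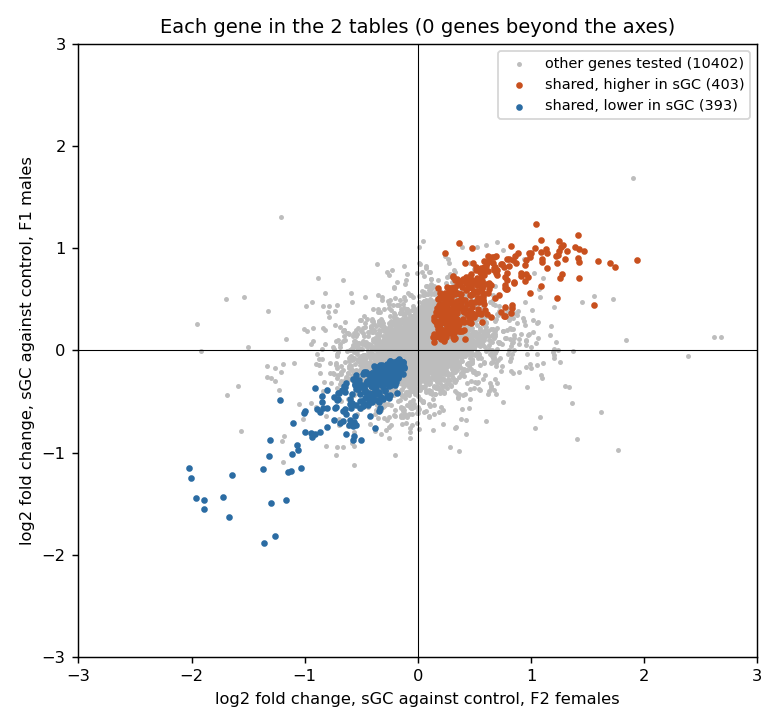
Log2 fold change of sGC against control in F2 females (horizontal axis) and F1 males (vertical axis), 1 point per gene tested. The 403 shared genes that rose fill the upper right quadrant and the 393 that fell the lower left, as the definition requires, and the other genes spread around 0.

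Single animals did not contribute evenly to the shared genes. Among the 5 male controls, control 3 had the highest level of all 11 males for 300 of the 393 genes that fell and the lowest for 241 of the 403 that rose. In the F2 table, control 3 was highest for 252 and lowest for 181 of the same genes. F2 sGC animal 3 was highest for 201 and male sGC animal 1 for 238 of the genes that rose. With each animal left out in turn, between 561 and 857 genes met the definition, the fewest without F2 control 3, and at least 546 of the 796 met it again.

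Myelin genes rose together. Of 22 measured myelin genes, 19 rose, none fell and 16 were shared, with a median log2 fold change of 0.71 against 0.00 over all genes tested. Of all genes, 7.47% were higher and 3.6% were shared and higher. The 3 genes of the myelin score used further on are well-known markers of this cell type. MAG, an adhesion protein of the innermost myelin membrane, was at 257, 206, 159 and 169 CPM in the F2 controls and at 442, 234, 642 and 360 CPM in the F2 sGC females. F2 sGC animal 2 lay below control 1, so these groups overlapped. In male controls MAG was at 362, 340, 211, 202 and 449.5 CPM, and in male sGC animals it ranged from 456 to 912 CPM with a median of 683, above all controls. The average log2 fold change of MAG was 1.08 (SE 0.18, FDR = 0.000505 in the quasi-likelihood test).

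MOG, a glycoprotein of the outer myelin surface, was at 227, 152, 150 and 130 CPM in F2 controls and at 363, 228, 507 and 348 CPM in F2 sGC females, with no overlap. Its male controls were at 286, 245, 163, 161 and 336 CPM and its male sGC animals at 321 to 630 CPM (median 488), with only control 5 inside the sGC range. For MOG the average was 1.05 on the log2 scale (SE 0.16, FDR = 0.000347 in the quasi-likelihood test). CNP, an enzyme of non-compact myelin, rose by a log2 fold change of 0.86 (FDR = 0.000374 in the same test), from a mean of 605 ± 104.96 CPM (SD, n = 4) to 1059 ± 293 CPM in F2 females, and from 673 ± 171 CPM (n = 5) to 1252 ± 269 CPM (n = 6) in males.

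**Figure D2:**
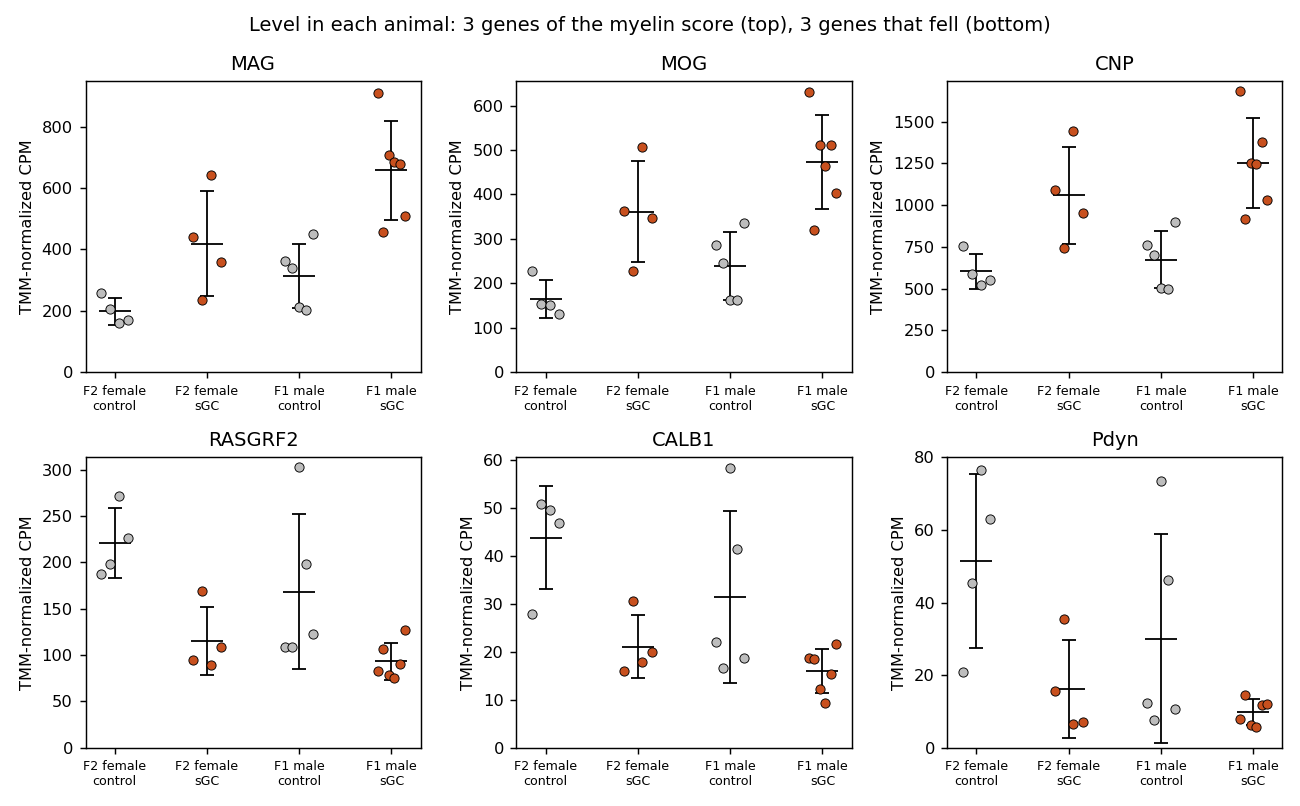
TMM-normalized CPM in each animal (points) with the group mean and SD (lines) for MAG, MOG and CNP, which rose, and RASGRF2, CALB1 and Pdyn, which fell. The 6 male sGC animals lie at 456 CPM or higher for MAG, and for the 3 genes that fell male controls 3 and 4 lie above the other 3 male controls.

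ANLN, an actin-binding scaffold protein of myelin septins, was at 34.7, 29.3, 27.8 and 23.6 CPM in F2 controls and at 78.2, 53.1, 100.9 and 76.4 CPM in F2 sGC females. Male controls were at 62.7, 56.4, 35.1, 39.0 and 64.6 CPM, and the male sGC animals at 70.6 to 126.5 CPM (median 93.6). The groups did not overlap in either table, and the average log2 fold change was 1.10 (SE 0.14, FDR = 0.000196 in the quasi-likelihood test). ADAMTS4, a protease made by oligodendrocytes, rose by 0.96 and CMTM5, a small membrane protein of oligodendrocytes, by 0.59 on the log2 scale, and for CMTM5 too the groups did not overlap in either table. The summed level of the 22 genes was 3746 to 5469 CPM in F2 controls and 5363 to 11390 CPM in F2 sGC females, and 4886 to 8001 CPM in male controls and 8933 to 14030 CPM in male sGC animals.

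The transcription factors and receptors of the oligodendrocyte lineage moved with them. Of 12 tested, 11 rose and 9 were shared, against 7.47% of all genes higher and 3.6% shared and higher. Their median log2 fold change was 0.56. MYRF, the factor that switches on myelin genes, rose by 1.01 on the log2 scale (FDR = 0.000335), GPR37, a receptor of maturing oligodendrocytes, by 0.88 (FDR = 0.000263), and PLXNB3, a semaphorin receptor, by 0.74 (FDR = 0.000325), all in the quasi-likelihood test. OLIG1, an early lineage factor, was at 245, 226, 195 and 204 CPM in F2 controls and at 291, 236, 325 and 332 CPM in F2 sGC females, where sGC animal 2 lay below control 1. In males it was at 261, 259, 203, 209 and 282 CPM in controls and 324 to 405 CPM (median 381) in sGC animals, all above the controls.

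Markers of oligodendrocyte precursors rose in part. Of 9 tested, 4 passed, all of them higher, against 7.47% of all genes higher. These were BCAS1 with a log2 fold change of 0.85, ENPP6 with 0.83, VCAN with 0.32 and GPR17 with 0.26. BCAS1 and ENPP6 mark cells that are turning into myelinating oligodendrocytes and were shared. VCAN, a proteoglycan, and GPR17, a receptor of committed precursors, did not reach p under 0.05 in F2 females alone. Their unadjusted p was 0.352 and 0.109 in the quasi-likelihood test, fitted over the 11198 genes tested. Of 18 genes of cholesterol synthesis and uptake 6 rose and 1 fell, against 7.47% of all genes higher and 7.67% lower. The shared genes included DHCR7, the last enzyme of the pathway, with a log2 fold change of 0.22, and MVK, mevalonate kinase, with 0.16. RNA from bulk tissue cannot tell more cells of a type from more RNA per cell, here and for every list below.

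The 10 shared genes with the largest rise included further genes with known places in oligodendrocytes and several without. SLC5A11, a sodium-coupled inositol transporter, had the largest average log2 fold change, 1.23 (SE 0.25, FDR = 0.00224 in the quasi-likelihood test). It was at 8.79, 4.94, 4.54 and 3.95 CPM in F2 controls and at 26.4, 8.76, 35.05 and 14.6 CPM in F2 sGC females, so that F2 sGC animal 2 fell just below control 1. Its male controls were at 20.03, 21.25, 9.405, 12.9 and 25.6 CPM and its male sGC animals at 21.3 to 43.2 CPM (median 32.2), with 1 control inside the sGC range. HAPLN2, a link protein of the matrix at nodes of Ranvier, rose by 1.14 and ST18, a zinc finger transcription factor, by 1.11 on the log2 scale.

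ZFP57, a zinc finger protein that protects genomic imprints, separated the groups in both tables. It was at 124, 77.7, 80.5 and 74.4 CPM in F2 controls and at 186, 126, 247 and 175 CPM in F2 sGC females, and in males at 34.1, 26.8, 22.1, 17.9 and 32.1 CPM in controls and 46.8 to 76.9 CPM (median 63.4) in sGC animals. The lowest sGC animal of each table was above the highest control, though in F2 females only by 126.1 against 124.0 CPM. Its average log2 fold change was 1.15 (SE 0.14, FDR = 0.000153 in the quasi-likelihood test), the smallest FDR among these 10 genes. The others were HOXD1, a homeobox gene (1.22), EMILIN2, a matrix glycoprotein (1.12), the warmth-sensing channel TRPV3 (1.12), ANLN (1.10), the bone sialoprotein gene IBSP (1.10) and the lipase LIPK (1.10).

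Astrocyte markers rose less and in fewer genes. Of 17 tested, 7 rose, none fell and 5 were shared, with a median log2 fold change of 0.18, against 7.47% of all genes higher and 3.6% shared and higher. GPR37L1, an orphan receptor of astrocytes, rose by 0.37 (FDR = 0.000292), KCNJ10, the potassium channel that clears potassium released by neurons, by 0.34 (FDR = 0.00065) and GLUL, glutamine synthetase, by 0.24 on the log2 scale (FDR = 0.00327), all in the quasi-likelihood test. The groups did not overlap in either table for GPR37L1 and KCNJ10. HEPACAM, an adhesion molecule of astrocyte endfeet, rose on average (log2 fold change 0.32), with a change of 0.15 in F2 females and 0.44 in males. In F2 females alone its unadjusted p was 0.0544 in the quasi-likelihood test, fitted over the 11198 genes tested.

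Genes of the actin cytoskeleton and cell adhesion gave the highest share of rises outside the oligodendrocyte lineage. Of 17 tested, 12 were higher and none lower, against 7.47% of all genes higher. Only 2 of the 12 were shared, CTNNA1 and WIPF1, against 3.6% of all genes shared and higher. The list median was 0.11 in F2 females and 0.30 in males. CTNNA1, alpha-catenin of adherens junctions, was at 106, 101, 100.5 and 110 CPM in F2 controls and at 116.1, 120.5, 111 and 119 CPM in F2 sGC females. In males it was at 95.3, 97.8, 93.9, 99.4 and 104 CPM in controls and at 119 to 143 CPM (median 127) in sGC animals. The groups did not overlap in either table, and the average log2 fold change was 0.29 (SE 0.04, FDR = 0.000289 in the quasi-likelihood test). TLN1, the integrin-binding protein talin, and ITGB1, the beta-1 integrin, rose by 0.30 and 0.19 on the log2 scale.

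Among 15 lysosomal genes 4 rose and none fell, against 7.47% of all genes higher. NPC1, which exports cholesterol from lysosomes, increased by 0.38 on the log2 scale (SE 0.04, FDR = 7.54e-05 in the quasi-likelihood test). It was at 85.9, 81.1, 78.0 and 77.6 CPM in F2 controls and at 99.4, 91.2, 103 and 107 CPM in F2 sGC females, and in males at 72.7, 85.0, 82.8, 81.4 and 92.2 CPM in controls and 102 to 117 CPM (median 113) in sGC animals, with no overlap in either table. TFEB, the master transcription factor of lysosomal genes, rose by 0.59, the cholesterol-binding NPC2 by 0.21 and PSAP, the precursor of sphingolipid activators, by 0.12 on the log2 scale, and PSAP lost its call without male control 3 (0.11), male control 4 (0.11) or male sGC animal 4 (0.10).

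Few markers of the other cell types that a cortical punch could hold passed the threshold. Of 14 microglial genes 1 rose, against 7.47% of all genes. It was ITGB2, an integrin subunit of leukocytes, with a log2 fold change of 0.33. None of 10 endothelial and none of 6 fibroblast genes passed, with median log2 fold changes of 0.08 and -0.13. The fibroblast median was -0.41 in F2 females and 0.07 in males. Of 6 pericyte genes ACTA2, smooth muscle actin, fell (-0.42), and its call was lost for 8 of 19 omitted animals, with the value nearest to 0 without male control 3 (-0.33). The summed level of 9 striatal neuron genes was 366 to 501 CPM in F2 controls and 401 to 678.5 CPM in F2 sGC females, and 334 to 460 CPM in male controls and 450 to 567 CPM in male sGC animals. Of these genes only GNG7, a G protein subunit, rose (log2 fold change 0.55). Whether the amount of neighbouring tissue in the punch had a part in any of these changes was not tested.

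None of 9 pan-neuronal genes passed the threshold for the average effect, with a median log2 fold change of 0.12. Several of the genes with the largest falls are known from particular classes of neuron. MYL4, a myosin light chain, fell most, by 1.70 on the log2 scale (SE 0.27, FDR = 0.000392 in the quasi-likelihood test). It was at 13.6, 24.9, 22.5 and 20.5 CPM in F2 controls and at 4.11, 6.92, 2.23 and 9.01 CPM in F2 sGC females, without overlap. In males MYL4 was at 2.70, 9.45, 15.8, 6.45 and 5.08 CPM in controls and at 2.01 to 3.96 CPM (median 2.57) in sGC animals, and only control 1 lay within the sGC range.

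Pdyn encodes prodynorphin, the precursor of the opioid peptides called dynorphins. It was at 20.8, 45.5, 76.4 and 63.0 CPM in F2 controls and at 15.7, 35.5, 6.61 and 7.06 CPM in F2 sGC females. Male controls were at 12.4, 7.66, 73.4, 46.2 and 10.8 CPM, and male sGC animals ranged from 5.77 to 14.5 CPM with a median of 9.84. The groups overlapped in both tables, and in males only controls 3 and 4 were above the sGC range. The average log2 fold change was -1.65 (SE 0.40, FDR = 0.00823 in the quasi-likelihood test).

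The calcium-binding protein calretinin, encoded by CALB2 and a marker of a class of interneurons, fell by 1.55 on the log2 scale (SE 0.30, FDR = 0.00159 in the quasi-likelihood test). It was at 38.3, 147, 112 and 126 CPM in F2 controls, with control 1 inside the F2 sGC range of 11.4 to 51.9 CPM. The male controls were at 31.6, 29.3, 115, 103 and 36.3 CPM, and the sGC animals at 14.5 to 31.7 CPM (median 22.9), so that controls 3 and 4 again stood above the rest. The other genes among the 10 largest falls were CNTN5, a neuronal adhesion molecule (-1.64), VWA5B1 (-1.64), PRKAG3, a regulatory subunit of AMP-activated kinase (-1.52), the keratin KRT80 (-1.42), the sodium-sensing channel SCN7A (-1.39), the synapse organizer CBLN1 (-1.34) and the transcription factor MSC (-1.24).

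Of 10 markers of upper cortical layers 4 fell and none rose, against 7.67% of all genes tested lower, with a median log2 fold change of -0.38. The median was -0.67 in F2 females and -0.18 in males. RASGRF2, an exchange factor for Ras and Rac, was at 187, 198, 271 and 227 CPM in F2 controls and at 95.1, 169, 89.4 and 108 CPM in F2 sGC females, without overlap. In males it was at 108, 109, 302, 198 and 123 CPM in controls and at 75.5 to 127 CPM (median 86.3) in sGC animals, where only controls 3 and 4 were above the sGC range. The average log2 fold change was -0.89 (SE 0.18, FDR = 0.00209 in the quasi-likelihood test). CALB1, the calcium-binding protein calbindin, fell by 1.01 (SE 0.22, FDR = 0.00367) and MDGA1, an adhesion molecule, by 0.61 (SE 0.17, FDR = 0.0182) on the log2 scale in the same test. MDGA1 missed the threshold without male control 3 (-0.52). CUX2, a transcription factor of upper-layer neurons, fell by 0.97 but its call was lost for 9 of 19 omitted animals, and it was at -0.62 without male control 3.

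None of 10 deep-layer markers passed, with a median of 0.17, and with 0.50 in F2 females and 0.02 in males. CTGF, a marker of the deepest layer, had a log2 fold change of 1.06 in F2 females and 0.28 in males (FDR of the average 0.0513 in the quasi-likelihood test). Among 14 interneuron genes 3 fell and none rose, against 7.67% of all genes lower. Beside CALB2 these were VIP, the gene of vasoactive intestinal peptide, with a log2 fold change of -0.77, and GAD1, the main enzyme of GABA synthesis, with -0.20 (FDR = 0.00434 and 0.00441 in the quasi-likelihood test).

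Among receptor and channel genes of neurons more fell than rose, and many did not pass. Of 12 GABA receptor genes 7 fell and none rose, with a median log2 fold change of -0.19, and 4 were shared, against 7.67% of all genes lower and 3.51% shared and lower. GABRA2, GABRA3 and GABRA4 encode alpha subunits, which set the drug and kinetic properties of the GABA-A receptor. GABRA4 was at 99.7, 80.2, 90.1 and 90.6 CPM in F2 controls and at 86.5, 76.5, 79.9 and 65.9 CPM in F2 sGC females, where sGC animal 1 lay above control 2. In males it was at 101.2, 95.6, 101.2, 102 and 88.6 CPM in controls and at 74.8 to 87.5 CPM (median 83.5) in sGC animals, without overlap. The average log2 fold change was -0.23 (SE 0.05, FDR = 0.00281 in the quasi-likelihood test). GABRA2 and GABRA3 fell by 0.37 and 0.29 on the log2 scale.

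Of 18 glutamate receptor genes 7 fell, 1 rose and 10 did not pass, and 5 falls were shared. The AMPA receptor subunits GRIA1, GRIA2 and GRIA4 fell by 0.28, 0.24 and 0.43 on the log2 scale (FDR = 0.00214, 0.00268 and 0.00348 in the quasi-likelihood test). GRM2, an inhibitory metabotropic receptor at glutamate terminals, fell by 0.38 (FDR = 0.00285 in the same test). Of 22 sodium and calcium channel genes 9 fell, 1 rose and 12 did not pass, and of 27 potassium channel genes 6 fell, 1 rose and 20 did not pass, with the same 7.67% of all genes lower. The calcium channel subunits CACNA2D1 and CACNA2D3 fell by 0.30 and 0.27, and the potassium channel genes KCNG1, KCNN3 and KCND3 by 0.38, 0.58 and 0.30 on the log2 scale. KCNA1, a channel found along myelinated axons, rose by a log2 fold change of 0.50.

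Of 21 genes of synaptic vesicle release 4 fell and none rose, against 7.67% of all genes lower, and the list's median was -0.06. STX1A, syntaxin of the fusion machinery, fell by 0.19 (FDR = 0.000961) and SYN2, a synapsin that tethers vesicles, by 0.33 on the log2 scale (FDR = 0.000935, both in the quasi-likelihood test), and for STX1A the groups did not overlap in either table. In the same sGC animals the summed myelin level stood higher, as given above, and the part of cell composition in the neuronal falls was not tested.

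The glucocorticoid receptor and its common target genes gave no shared direction. Over all genes tested, 7.47% were higher and 7.67% lower. The calls in the receptor, immediate early, oxidative phosphorylation and heat shock lists below were near those shares. Of 11 tested, 1 rose, PDK4, a brake on pyruvate use (log2 fold change 0.53, 0.07 in F2 females and 0.83 in males), and 1 fell, the transcription factor ZBTB16 (-0.47, shared). TSC22D3, a classical target of the receptor, had a log2 fold change of 0.09 (FDR = 0.108 in the quasi-likelihood test). Of 17 immediate early genes 1 rose, NR4A2, an orphan nuclear receptor (0.44), and its call was lost in 5 of 19 fits with 1 animal left out (0.41 without F2 control 3, 0.39 without male control 3, 0.41 without male control 4, 0.42 without male sGC animal 3 and 0.38 without male sGC animal 5). None of 49 ribosomal protein genes and 3 of 55 oxidative phosphorylation genes passed, with median log2 fold changes of 0.06 and 0.06. The calls of the 3 genes, NDUFB2, NDUFV3 and Ndufb11, were lost for 14, 7 and 11 of 19 omitted animals. Of the remaining lists, 1 of 12 heat shock genes fell, 1 of 2 ependymal genes rose (CCDC153, lost for 15 of 19 omitted animals) and the other fell, and none of 6 perineuronal net genes and none of 4 genes of the hypothalamic paraventricular nucleus passed.

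**Figure D3:**
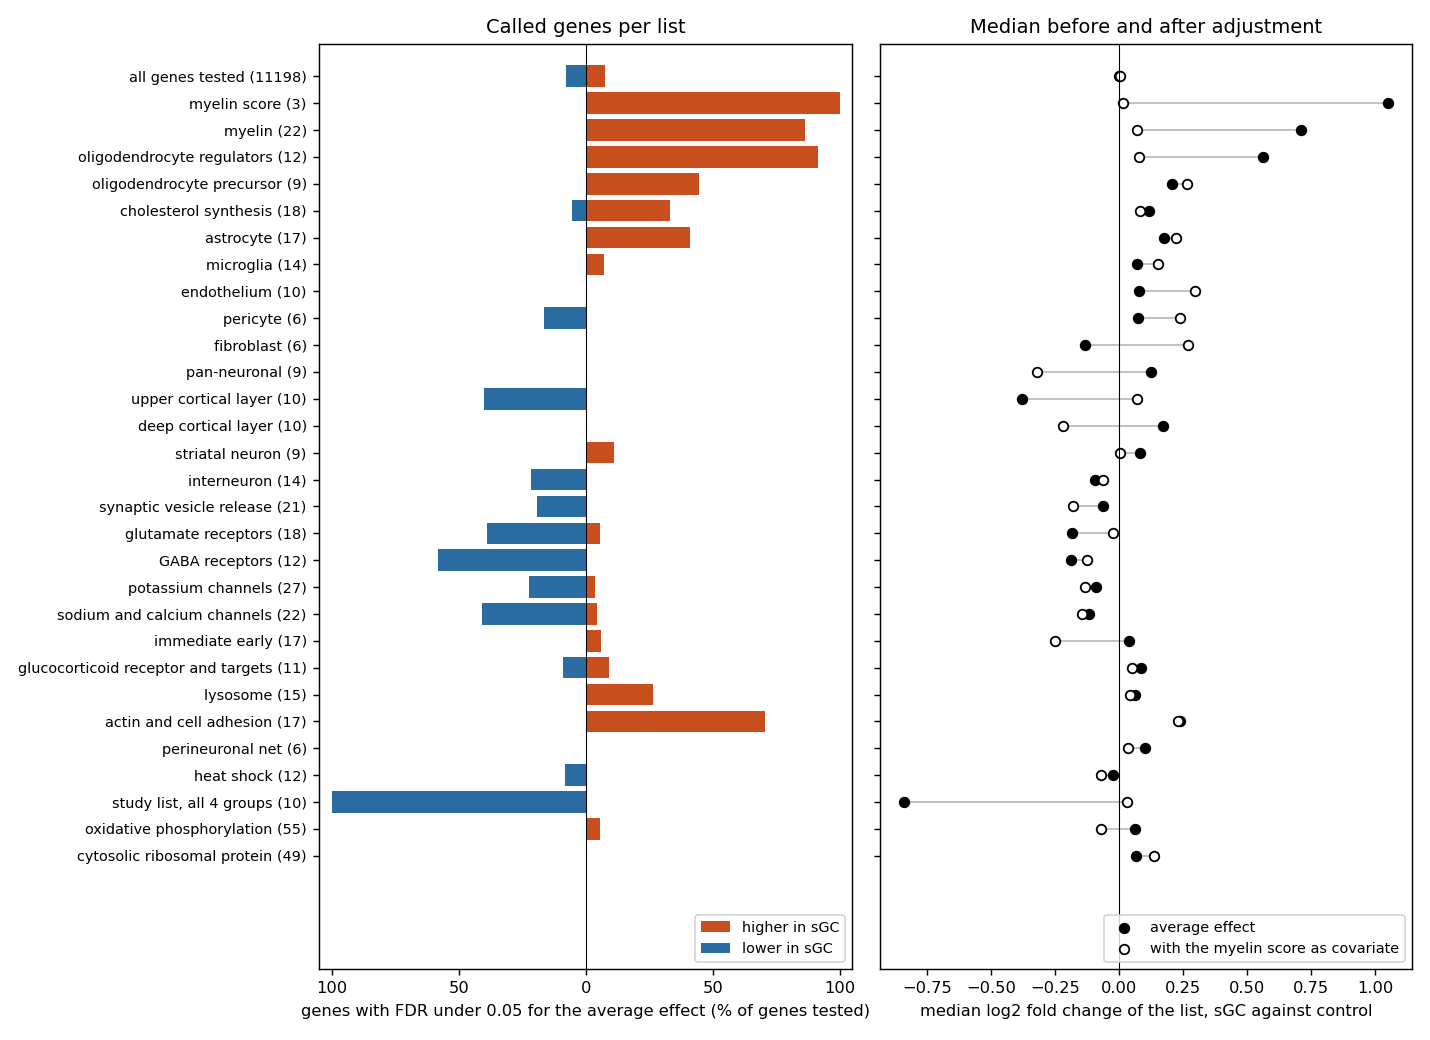
Left, share of each list's tested genes (number in brackets) with an FDR under 0.05 for the average effect, higher to the right and lower to the left; right, the list's median log2 fold change before (filled) and after (open) the myelin score entered the fit. The myelin list moves from 0.71 to 0.07, while the actin and cell adhesion list stays at 0.24 and 0.23.

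To see what remained, the fit was repeated with a myelin score as covariate, the mean log2 CPM of MAG, MOG and CNP in each animal, centred within its table. The score was planned from 5 genes, but MBP and MOBP are not among the genes tested, which left these 3. The score was 8.47, 8.05, 7.86 and 7.85 in F2 controls and 9.13, 8.42, 9.60 and 8.94 in F2 sGC females. In males it was 8.74, 8.60, 8.02, 7.99 and 9.0 in controls and 9.0 to 9.95 (median 9.55) in sGC animals. F2 sGC animal 2 lay below the highest F2 control, and male sGC animal 2 had the same rounded score as the highest male control. Treatment and score were therefore hard to separate: table and score together accounted for an R2 of 0.667 of the treatment term, a variance inflation of 3.0, and the SE with the score was, as a median over genes, 1.69 times the SE without it. A gene that missed the threshold in this fit is not shown to be unaffected.

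In the fit with the score, 1 gene (0.00893%) had an FDR under 0.05 for sGC, and 1529 (13.7%) had an unadjusted p under 0.05. The count depended on the test, since edgeR's likelihood ratio test gave 62 genes and DESeq2 124, of which 26 were higher and 98 lower. The slope on the score passed for 1566 genes (14%), 883 positive (7.89%) and 683 negative (6.1%). Among the 796 shared genes, the slope passed in the direction of the sGC effect for 408, or 51.3%, and in the opposite direction for 0. It did so for 223 of the 403 genes that rose and 185 of the 393 that fell. Over all genes tested, the slope passed in the direction of the average sGC effect for 1414 (12.6%) and in the opposite direction for 152. The shared genes were chosen for their sGC effect in these same animals, and the score differed between the groups. That choice favours slopes in the direction of the effect, so the counts are a description. The median log2 fold change of the shared genes that rose went from 0.43 to 0.12 and that of the genes that fell from -0.27 to -0.06. The sign was the same as before for 616 of the 796. Across all genes, the adjusted fold changes of the 2 tables correlated with Pearson's r = 0.12 and a Spearman coefficient of 0.23, and 59.8% had the same sign.

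The lists differed in how far their medians moved. The myelin list went from 0.71 to 0.07 and the oligodendrocyte regulators from 0.56 to 0.08, which for MAG, MOG and CNP themselves follows from the score. Upper-layer markers went from -0.38 to 0.07, with adjusted medians of -0.11 in F2 females alone and 0.25 in males alone. The astrocyte list, by contrast, had a median of 0.18 before and 0.22 after, the oligodendrocyte precursor list 0.20 and 0.26, and the actin and adhesion list 0.24 and 0.23. The medians of vascular and connective tissue lists moved up, from 0.08 to 0.30 for endothelium, from 0.07 to 0.24 for pericytes and from -0.13 to 0.27 for fibroblasts. In each table alone, the adjusted values were 0.11, 0.11 and 0.09 in F2 females and 0.43, 0.34 and 0.45 in males, in this order. With an unadjusted p under 0.05 and a positive adjusted effect, there were 10 of 17 astrocyte genes, 6 of 10 endothelial genes, 1 of 6 pericyte genes, 0 of 6 fibroblast genes, 4 of 9 precursor genes and 11 of 17 actin and adhesion genes, against 6.43% of all genes tested. Pan-neuronal genes went the other way, from a median of 0.12 to -0.32, and 8 of 9 had a negative adjusted effect with an unadjusted p under 0.05, against 7.22% of all genes. The same held for 12 of 21 vesicle release genes and 10 of 22 sodium and calcium channel genes. None of these genes passed the FDR threshold in this fit.

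**Figure D4:**
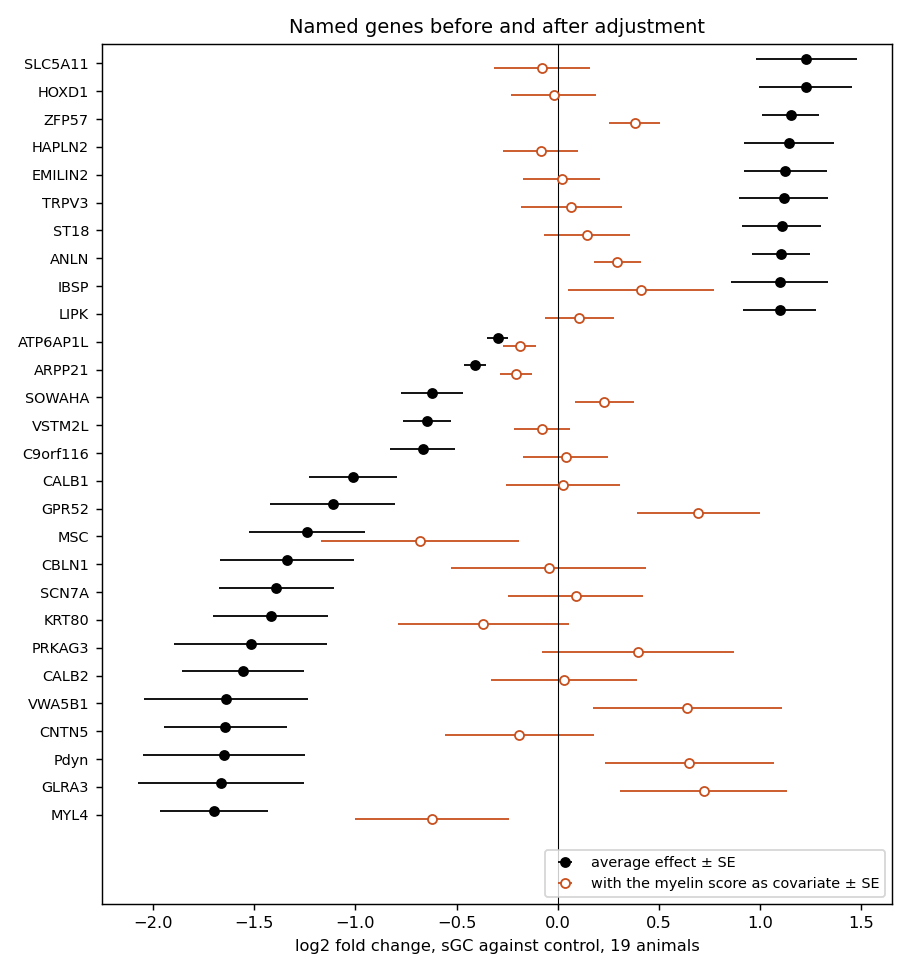
Average log2 fold change over 19 animals with its SE for the largest shared rises, the largest shared falls and the genes of the list chosen on these samples, before (filled) and after (open) the myelin score entered the fit. SLC5A11 moves from 1.23 to -0.08, ZFP57 from 1.15 to 0.38 and ARPP21 from -0.41 to -0.20.

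Of the 796 shared genes, 149 (18.7%) kept their direction with an unadjusted p under 0.05 once the score was in the fit. The same is true of 9.59% of all genes tested. Choosing the shared genes by their sGC effect in these same animals favours the higher share, so the comparison is only a description. Of the 149, 87 were higher and 62 lower in sGC animals, and the smallest FDR was 0.0963. The groups did not overlap in either table for 65 of them, against 132 of all 796 shared genes and 147 (1.31%) of all genes tested. Separate groups are favoured by the definition of a shared gene, which asks for an unadjusted p under 0.05 in each table. The 149 included 4 of the 5 shared astrocyte genes, FGFR3, GLUL, GPR37L1 and KCNJ10, but 1 of the 16 shared myelin genes, ANLN, and 0 of the 9 shared oligodendrocyte regulators. NPC1, with an adjusted log2 fold change of 0.25 (SE 0.07), CTNNA1 with 0.23 (SE 0.07), and ZFP57 with 0.38 (SE 0.12) were among them, as were GRM2 with -0.55 (SE 0.13), STX1A with -0.14 (SE 0.06) and GABRA4 with -0.20 (SE 0.08).

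The 10 of these genes with the smallest p in the fit with the score were RHOBTB2, SMOX, GATM, FUT10, GRM2, CYB5A, ORC2, RGS7, FGFR2 and PLCD1, and they are named here after their values were seen. SMOX, spermine oxidase of polyamine breakdown, was at 19.4, 16.4, 18.3 and 18.3 CPM in F2 controls and at 23.1, 25.6, 23.2 and 24.9 CPM in F2 sGC females. In males it was at 17.7, 15.4, 15.7, 15.6 and 17.9 CPM in controls and at 19.6 to 23.3 CPM (median 22.2) in sGC animals. The groups did not overlap in either table, and the log2 fold change was 0.42 (SE 0.05) before and 0.35 (SE 0.08) after the score was added. GATM, the first enzyme of creatine synthesis, was likewise separate in both tables, at 207 to 235 CPM in F2 controls against 257 to 300 CPM, and at 153 to 165 CPM in male controls against 193 to 213 CPM. Its log2 fold change went from 0.33 to 0.25.

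FGFR2, a fibroblast growth factor receptor of oligodendrocytes and astrocytes, was at 52.9 to 58.8 CPM in F2 controls and 65.6 to 75.03 CPM in F2 sGC females, and at 53.6 to 58.2 CPM in male controls and 67.7 to 83.9 CPM in male sGC animals. Its log2 fold change was 0.38 before and 0.26 after adjustment. RGS7, which ends signalling by neuronal G proteins, and ORC2, a subunit of the origin recognition complex, fell with no overlap of the groups in either table. RGS7 was at 99.0, 98.7, 102 and 102 CPM in F2 controls and at 89.5, 85.2, 84.6 and 73.0 CPM in F2 sGC females, and at 105.3 to 115 CPM in male controls and 89.2 to 95.0 CPM in male sGC animals. For FGFR2 too the groups did not overlap in either table. The change of RGS7 was -0.25 (SE 0.03) before and -0.22 (SE 0.06) after the score was added, and that of ORC2 -0.22 (SE 0.03) and -0.22 (SE 0.06).

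The single gene past the FDR threshold with the score in the fit was SH3BP4, a protein of clathrin-coated vesicles that carry the transferrin receptor. It was at 52.7, 56.1, 55.9 and 58.4 CPM in F2 controls and at 60.4, 66.7, 53.6 and 66.9 CPM in F2 sGC females. Male controls were at 52.5, 53.3, 62.8, 58.5 and 48.4 CPM and male sGC animals at 55.3 to 65.2 CPM (median 57.8), so that the groups overlapped in both tables. Its average log2 fold change was 0.12 (SE 0.05, FDR = 0.117) without the score and 0.38 (SE 0.05, FDR = 0.00571, both in the quasi-likelihood test) with it, and its slope on the score was -0.27. It was therefore not one of the 796 shared genes, but with the score its log2 fold change was 0.39 in F2 females and 0.38 in males, with an unadjusted p below 0.05 in each. With 1 animal omitted the call held 17 of 19 times, and no gene passed without male control 5 or without male sGC animal 2. These are the 2 males with a score of 9.0.

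The genes next to it were GJA1, the gap junction protein connexin 43 of astrocytes (0.14 before and 0.36 after), PLXNB1, a semaphorin receptor (0.14 and 0.32), and FYCO1, an adaptor of autophagosome transport (0.16 and 0.65). The smallest p for lower levels were those of KERA (-0.63 and -2.28), KLC2, a kinesin light chain (0.02 and -0.26), MTTP, the triglyceride transfer protein (0.00 and -2.72), and RHOBTB2 (-0.17 and -0.32). None of these 7 genes had an FDR under 0.05, and RHOBTB2 alone was a shared gene. KERA was under 3 CPM in every animal. In MTTP, male control 5 stood apart at 9.05 CPM, with the next male control at 2.58 CPM.

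A list of 10 genes had been chosen on these same samples as changed in every group of the series, so their direction here is not independent evidence. All 10 fell and all were shared, with a median log2 fold change of -0.84. The largest falls were those of GLRA3, a glycine receptor subunit (-1.67), Pdyn (-1.65), KRT80 (-1.42), GPR52, an orphan receptor (-1.11), and CALB1 (-1.01), and GPR52 lost its call without male control 3 (-0.86). GLRA3 and GPR52 were low, with 4 to 120 and 9 to 135 reads per animal. Male controls 3 and 4 had GLRA3 at 4.29 and 2.86 CPM. The other male controls were at 0.54 to 0.83 CPM and male sGC animals at 0.15 to 0.77 CPM. For GPR52 these were 4.83 and 3.62 CPM, 0.97 to 1.61 CPM and 0.52 to 1.81 CPM, in this order. In F2 females the groups overlapped for both genes. With the score in the fit the median of the 10 genes was 0.03, and the slope on the score was negative and past the threshold for 8 of the 10. GPR52 had a positive adjusted log2 fold change of 0.69 (SE 0.30). ARPP21, a regulator of calmodulin signalling, and ATP6AP1L kept negative values, -0.20 (SE 0.08) and -0.19 (SE 0.08). ARPP21 was at 259 to 305 CPM in F2 controls and 173 to 231 CPM in F2 sGC females, and at 260 to 343 CPM in male controls and 216 to 245 CPM in male sGC animals, so that its groups did not overlap in either table.

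The effect of sGC was not shown to differ between the 2 tables for any gene by edgeR's quasi-likelihood test of the interaction, where 0 genes passed and p before adjustment was below 0.05 for 1010. With the likelihood ratio test 23 genes passed, and with DESeq2 26. The 4 genes of smallest p were ADIPOR2, an adiponectin receptor, NATD1, FAN1, a DNA repair nuclease, and SMARCD2, a subunit of the SWI/SNF complex. ADIPOR2 had log2 fold changes of -0.09 in F2 females and 0.40 in males.

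The same genes were then looked up in the F1 female and F3 female tables, whose animals did not enter the definition and had their own controls. Among 402 of the genes that rose and were tested in F1 females, 368 had a negative log2 fold change there, with a median of -0.43, and 41 were called lower and 4 higher. Of all genes tested in F1 females, 16.5% were called, 7.33% lower and 9.21% higher. Of the genes that fell, 253 of 386 were positive in F1 females, with a median of 0.12, and 62 were called higher and 18 lower. In F3 females the direction was mostly that of the F2 females and F1 males but the changes were small. There, 332 of 398 genes that rose were positive (median 0.13, 1 called higher) and 249 of 381 genes that fell were negative (median -0.07, 10 called lower and 1 higher), where 1.34% of all genes were called, 1.07% higher and 0.271% lower.

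**Figure D5:**
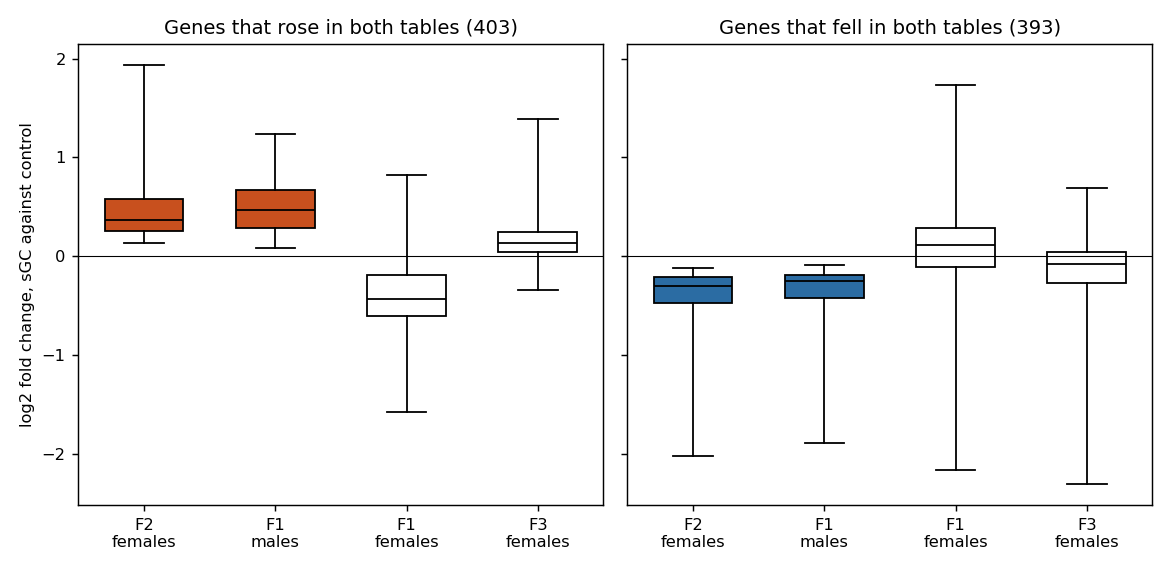
Log2 fold change of sGC against control for the 403 genes that rose and the 393 that fell, in the 2 tables that defined them (filled boxes) and in the F1 and F3 female tables (open boxes). Boxes span the quartiles with the median as a line, whiskers reach the lowest and highest gene, and the medians of the genes that rose are -0.43 in F1 females and 0.13 in F3 females.

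The myelin score of those tables was computed in the same way. It was 8.39 to 10.05 (median 9.28) in F1 female controls and 8.03 to 8.94 (median 8.66) in F1 sGC females, and 9.08 to 10.54 (median 9.68) in F3 controls and 9.91 to 10.47 (median 10.19) in F3 sGC females, with overlapping groups in both. Of the 22 myelin genes, none was called in F1 females, where their median log2 fold change was -0.59, and none of 21 in F3 females, with a median of 0.27. ZFP57 was at -0.96 (FDR = 0.0732) in F1 females and 0.30 (FDR = 0.651) in F3 females in the quasi-likelihood test. Of the 17 astrocyte genes, 10 were called lower in F1 females, with a median of -0.42. KRT80 was lower in both of the other tables as well, with log2 fold changes of -2.16 in F1 females (FDR = 0.0333) and -1.92 in F3 females (FDR = 0.0442) in the quasi-likelihood test, and it belongs to the list chosen on these samples. Of the 10 genes of that list, 6 were called lower and 1 higher in F1 females, and 2 lower and 0 higher in F3 females. ATP6AP1L went the other way, at 1.01 in F1 females (FDR = 0.0262) and 0.50 in F3 females (FDR = 0.116) in the same test.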

How the data were processed

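Per the labels, RNA from prefrontal cortex of 19 guinea pigs (F2 females and F1 males, 1 library each) was sequenced. The authors deposited raw read counts for each gene symbol, as whole numbers that were not normalized, in 1 table for the F2 females and 1 for the males. The submitters' processing notes name TopHat2 and edgeR. The read counter, genome build and annotation are not given in the sources used here, so no coordinates or sequences are printed. The authors' own comparison columns (dispersion, fold change, log2 CPM, likelihood ratio, p-value, FDR) were not used.

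Counts were analysed with edgeR 4.0.16 in R 4.3.3: filterByExpr (minimum count 10, minimum total count 15), TMM over 19 libraries, the quasi-likelihood test with treatment and table as terms, and Benjamini-Hochberg adjustment over 11198 genes. The likelihood ratio test that the study used was run as an alternative, as was DESeq2 1.42.0. SE is the fold change divided by the square root of F. Log2 CPM for the score used a prior count of 2. The scripts were tested on simulated data. Because nothing states that animals of a group came from different litters in males, p-values measure the spread between these animals.

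Genes named are the score genes, the 10 largest shared rises and falls with a mean of at least 1 CPM in every group, the 4 of smallest p in each direction in the adjusted fit and for the difference between tables, up to 4 of smallest p per list (31 lists) and the study's 10 genes. The members and lists were chosen with earlier results of these data known. Replicate numbers did not pair the animals (correlations of deviations from -0.26 to 0.14), and no 2 libraries agreed within sampling noise (chi-square per degree of freedom from 5.25).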

Additional observations from a re-analysis of the deposited data

Results flagged for a closer look

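In 8 of 164 groups of animals checked for the named genes, the score and the read totals, 1 animal stood apart by Dixon's test, and chance gives about 1 in 20. F2 control 1 was the highest F2 control for HOXD1 (4.714 CPM, the next at 3.245), ZFP57 (124.0 CPM, the next at 80.48) and KLC2 (280.5 CPM, the next at 239.4). Among male sGC animals, animal 2 was highest for VWA5B1 (3.994 CPM, the next at 1.844) and animal 6 for KRT80 (8.703 CPM, the next at 4.088) and MSC (2.803 CPM, the next at 1.433). Male control 5 was highest for MTTP (9.05 CPM, the next at 2.583). Male control 1 had the fewest assigned reads of its group (25453583, the next at 28022395).

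For 2 genes every sGC animal lay below every control in F2 females and above every control in males. The log2 fold changes of NATD1 were -0.20 and 0.17, a difference of 0.37, and those of SMARCD2 were -0.17 and 0.30, a difference of 0.47. The interaction passed the FDR threshold for neither gene in the quasi-likelihood test.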

How the results depend on the processing

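The counts for the average effect and for the shared genes stayed within 1.5 times their values under every alternative run, except that 1680 genes were shared when only the same sign in both tables was required. With 1 animal left out, 1185 to 1887 genes passed for the average effect, 561 to 857 were shared, 0 to 3 passed with the myelin score in the fit, 0 to 1 were also shared after adjustment and 0 to 9 differed between tables.

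The counts after adjustment were the ones that moved. The likelihood ratio test gave 62 genes for the adjusted effect and 41 shared after adjustment, and 23 that differed between tables. DESeq2 gave 124, 52 and 26, in this order. A slope on the score for each table gave 8 and 8 genes, and log2 library total in place of the score gave 1384 and 646. Upper-quartile normalization gave 1 gene that differed between tables, and adding the score to that test gave 21. The causes were not tested. RLE normalization, leaving low counts in, requiring CPM above 1 and a score from other myelin genes or without MAG, MOG or CNP each left 1 gene after adjustment.

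Replicate numbers did not pair the animals. With a replicate block, 1329 genes passed for the average effect and 690 were shared, 0 passed for the adjusted effect and 0 were shared after it. Among the named genes, the block ended the calls of Pdyn (-1.47), PRKAG3 (-1.33), MDGA1 (-0.58), CUX2 (-0.85) and PSAP (0.12), among others. None of the 97 named genes that passed changed the sign of its average effect in the 28 alternatives, and 114 of all 154 kept their side of the threshold in each. Near 0, the signs of MTTP (-0.26 to 0.62), KLC2 (-0.01 to 0.04), NATD1 (-0.02 to 0.05) and OXT (-0.02 to 0.10) changed, none of which passed. The F2 libraries were smaller than those of males, and fewer genes passed in them alone (31 against 1062).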
